A study of Homo sapiens with 5 samples.

Results

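Chemokine ligand genes encode small secreted proteins that guide leukocytes. The members were taken by symbol from the GENCODE annotation of hg38, as every protein-coding gene named CCL, CXCL, CX3CL or XCL with a number, which gave 43 of 20007 protein-coding gene symbols. A TEAD4 peak was assigned to a gene when its summit lay in the gene body or within 50 kb of any annotated transcription start site (TSS) of the gene. This rule took 24 of the 21113 TEAD4 peaks. The rule itself used only symbols and positions, and no signal values or motifs. The members were, however, chosen with earlier results of these data known.

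LX-2 is an immortalized human hepatic stellate cell line and served as a human model of myofibroblastic hepatic stellate cells (MF-HSCs). All 5 samples came from LX-2 cells that had received the solvent DMSO, and no other treatment was compared. They were 3 TEAD4 ChIP-seq replicates, made with a single anti-TEAD4 antibody, and 2 input samples, of which one was common to replicates 1 and 2 and one went with replicate 3. The peak list describes replicates 1 and 3 together, because replicate 2 was left out upstream as insufficiently concordant, and it holds no value per replicate. A spread between replicates could therefore not be given for any peak, the depth of each sample is unknown, and all replicates come from the same line. The list holds no expression values either, so the identity of the cells was not checked against marker genes, and transcription of the chemokine genes was not analysed here.

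Chemokines bind G protein-coupled receptors on leukocytes and are grouped as CXC, CC, C and CX3C ligands by the spacing of their first cysteines. Many of their genes lie side by side in clusters, on chromosome 4 for most CXC ligands and on chromosome 17 for many CC ligands. Activated stellate cells are a known source of such ligands in the injured liver, among them CCL2, which attracts monocytes, and CXCL8, which attracts neutrophils. TEAD4 is a DNA-binding protein that recruits the coactivator YAP1, and it often sits beside AP-1, a dimer of FOS and JUN proteins. NF-kB is the best known activator of inflammatory chemokine promoters.

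The summit nearest to any chemokine TSS was that of CXCL8, 22 bp upstream of the gene at chr4:73740519-73743716 (plus strand). The hg38 sequence of the 130 bases before this TSS is shown because it holds the summit at its base 109 and matches to motifs of AP-1 (TGACTCA or TGAGTCA, which are reverse complements) and NF-kB (GGNNTTTCC, either strand), here in capitals.
CXCL8 promoter, chr4:73740389-73740518: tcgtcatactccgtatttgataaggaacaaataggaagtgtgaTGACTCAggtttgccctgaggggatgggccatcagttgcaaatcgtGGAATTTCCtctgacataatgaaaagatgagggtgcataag

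The strongest peak within 2.5 kb of a chemokine TSS lay 373 bp upstream of CCL2. The window reaching 50 bases to either side of its summit, in hg38, holds the TEAD motif (ACATTCC, here read on the minus strand and so printed as GGAATGT in capitals), and the middle of the motif fell on the summit itself.
CCL2 upstream peak, chr17:34254851-34254951: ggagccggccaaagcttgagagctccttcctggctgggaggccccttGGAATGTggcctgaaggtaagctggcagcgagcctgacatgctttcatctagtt

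The strongest peak of each other cluster with peaks is shown next, as 161 bases for CXCL8, where the NF-kB match lies farther from the summit, and with 50 bases to either side of the summit for CXCL2. The window upstream of CXCL8 holds a match to the NF-kB motif, read on the minus strand, and an AP-1 motif (capitals). The window upstream of CXCL2 holds none of the motifs searched.
CXCL8 distal peak, chr4:73726121-73726281: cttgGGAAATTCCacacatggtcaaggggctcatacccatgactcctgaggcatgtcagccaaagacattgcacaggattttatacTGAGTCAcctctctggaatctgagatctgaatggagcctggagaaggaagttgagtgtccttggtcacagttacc
CXCL2 distal peak, chr4:74109378-74109478: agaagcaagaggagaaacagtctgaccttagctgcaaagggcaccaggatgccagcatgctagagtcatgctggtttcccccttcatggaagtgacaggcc

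A further 3 windows of this narrower width in hg38 were added after the values were seen, because they hold the TEAD motif (capitals) close to a summit near CXCL2, CXCL3 or CXCL12. In the CXCL12 window an NF-kB match also stands in capitals, 4 bases before the TEAD motif.
CXCL2 overlapping peak, chr4:74109581-74109681: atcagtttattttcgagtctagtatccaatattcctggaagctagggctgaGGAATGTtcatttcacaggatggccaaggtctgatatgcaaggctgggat
CXCL3 upstream peak, chr4:74044857-74044957: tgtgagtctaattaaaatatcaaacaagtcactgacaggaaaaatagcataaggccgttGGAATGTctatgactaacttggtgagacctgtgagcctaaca
CXCL12 upstream peak, chr10:44390706-44390806: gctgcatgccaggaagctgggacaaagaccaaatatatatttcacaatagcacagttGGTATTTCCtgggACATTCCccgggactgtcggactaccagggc

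TEAD4 peaks lay near 19 of the 43 chemokine ligand genes (44.2%, Wilson 95% interval 30.4 to 58.9%). Of all protein-coding genes, 56.2% had a peak by the same rule, a share inside that interval. Long genes have more room for peaks, and most chemokine genes are short. Among genes of at most 25 kb, 18 of 41 chemokine genes (43.9%, 29.9 to 59.0%) had a peak, against 50.4% of all coding genes of that length. Within 2.5 kb of a TSS, 4 of 43 genes had a peak (9.30%, 3.68 to 21.6%), namely CXCL8, CCL2, CX3CL1 and CCL26, against 16.7% of all coding genes. At either distance the interval of the share with a peak included the background.

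With 7 genes at 1 peak, 10 at 2 and 2 at 3 (CXCL17 and CXCL2), 0 of 43 chemokine genes had 4 or more (Wilson upper bound 8.20%), against 11.6% of all coding genes (2330). Among genes of at most 25 kb, 0 of 41 chemokine genes (upper bound 8.57%) and 6.62% of coding genes had 4 or more, so that the bound lay below the background for all lengths and above it for short genes. The median was 0 peaks for the chemokine genes and 1 for all coding genes. Genes shared peaks, since 6 of the 24 peaks were assigned to several chemokine genes, and 9 of the 24 had the TSS of another coding gene closer than that of a chemokine gene. The distance from summit to the nearest chemokine TSS had a median of 12.5 kb and ran from 0.022 to 47.9 kb. It was at most 2.5 kb for 4 peaks, 2.5 to 10 kb for 5, 10 to 25 kb for 6 and over 25 kb for 9, and 16 peaks lay upstream and 8 downstream of that TSS.

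**Figure D1:**
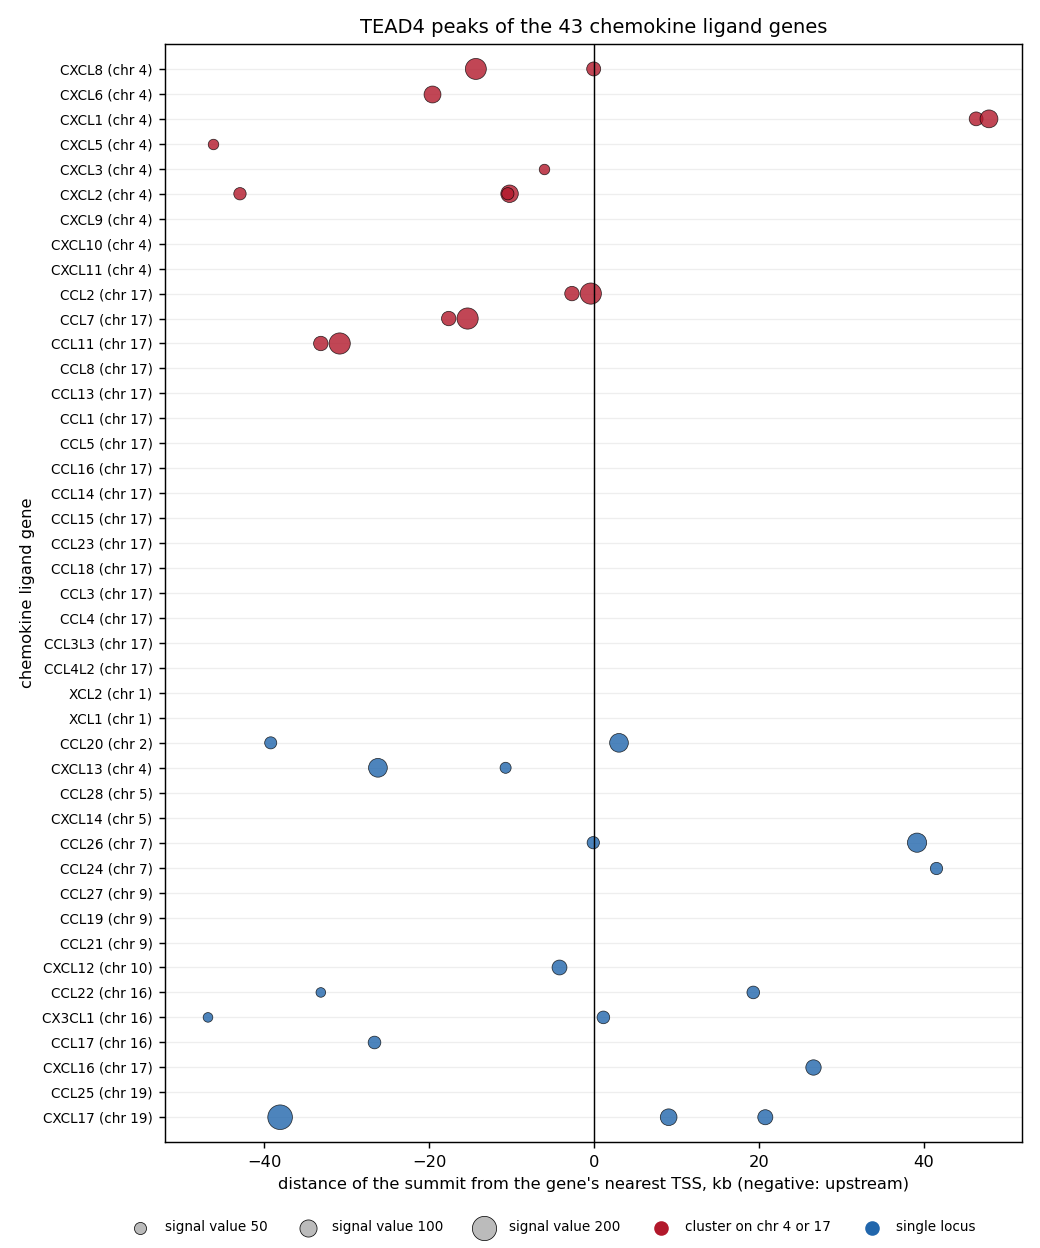
Position of each TEAD4 summit relative to the nearest TSS of the chemokine gene it was assigned to, in kb (negative is upstream), with 1 row per gene and the size of a point giving the signal value. Points lie on 19 of the 43 rows, 4 of them within 2.5 kb of the line at 0, and a peak assigned to several genes appears on each of their rows.

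The signal value, which the peak caller gives to each peak, had a median of 76.5 over the 24 chemokine peaks, from 31.7 to 207, against a median of 68.1 over the whole list, which ran from 6.57 to 1074. Of the 24 peaks, 14 (58.3%, 38.8 to 75.5%) exceeded the median of the list. The IDR score, which is high for peaks whose rank repeats between replicates, was at its maximum of 1000 for 18 of 24 chemokine peaks (75.0%), against 76.1% of the list, and the other 6 had 921 to 967. All 24 had the lowest q-value in the list, as did 94.5% of all peaks. None stood above the 91.5th percentile of the list, the place of a peak 38.1 kb upstream of CXCL17.

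The neutrophil-attracting ligands of chromosome 4, which carry an ELR motif and act on the receptors CXCR1 and CXCR2, had peaks near each of the 6 genes named by the symbol rule, where 56.2% of all coding genes had one. Neighbouring genes share peaks, and CXCL1 and CXCL5 counted only through summits 46.4 and 46.2 kb away, close to the 50 kb limit. PPBP, a further ligand of this kind whose symbol falls outside the rule, had none, with the nearest summit at 56.7 kb. The 6 genes formed 2 merged loci. The locus of CXCL8, CXCL6 and CXCL1 (chr4:73690519-73919393, 228.9 kb) held 5 peaks, or 2.19 per 100 kb (exact Poisson 95% interval 0.709 to 5.10). The locus of CXCL5, CXCL3 and CXCL2 (chr4:73948677-74149196, 200.5 kb) held 4, or 1.99 per 100 kb (0.543 to 5.11). The intervals of both loci include the 0.886 per 100 kb that the merged windows of all coding genes gave.

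CXCL8, also called interleukin 8, had 2 peaks. The peak over its promoter (chr4:73740275-73740718) had a signal value of 67.0, at the 49.1th percentile of the list. The NF-kB and AP-1 matches shown above were centred 15 and 62 bp before its summit. The distal peak (chr4:73726048-73726339), 14.3 kb upstream, was stronger at 150 (84.4th percentile), with an AP-1 motif centred 9 bp from the summit and an NF-kB match 72 bp from it. Both CXCL8 peaks thus held AP-1 and NF-kB matches and neither held ACATTCC within 100 bp. No other chemokine peak combined the former pair.

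CXCL6 had its peak 19.6 kb upstream, with a signal value of 97.5 and an AP-1 motif centred 6 bp from the summit. CXCL1 had no peak nearer than 46.4 kb, where a peak of signal value 65.5 lay downstream of the gene, followed by one of 109 at 47.9 kb that held an AP-1 motif. These CXCL1 peaks were close to the 50 kb limit and dropped out at 25 kb. CXCL3 had a peak 6100 bp upstream (chr4:74044685-74045128) with a signal value of 37.7, at the 13.2th percentile and with an IDR score of 967, and its TEAD motif was centred 12 bp from the summit. The same peak was the only one assigned to CXCL5, at 46.2 kb.

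CXCL2 had 3 peaks, all upstream. Of these, 2 overlap each other, with summits at 10.2 and 10.4 kb. The first (chr4:74109206-74109649) had a signal value of 104 and no motif, and the second (chr4:74109409-74109852) had 50.9 and the TEAD motif 4 bp from its summit. The third lay 42.9 kb upstream in an intron of MTHFD2L, a mitochondrial enzyme of folate metabolism, and had a signal value of 52.3. The TSS of MTHFD2L was also closer than that of CXCL2 to the overlapping pair, at 4746 and 4543 bp.

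**Figure D2:**
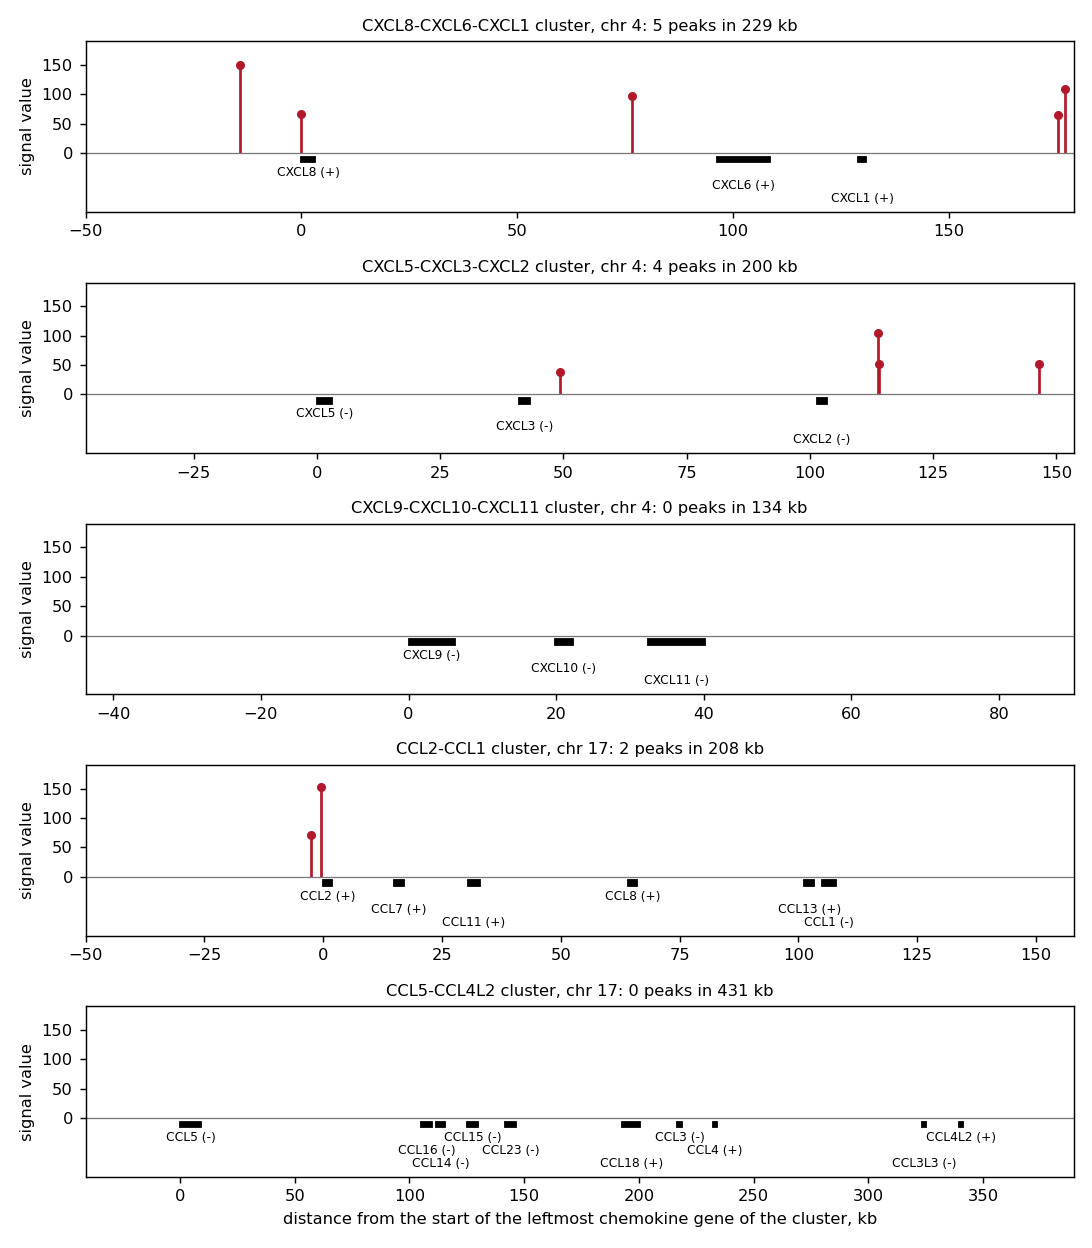
Maps of the 5 chemokine clusters on chromosomes 4 and 17, with position in kb from the start of the leftmost chemokine gene, genes as black boxes (strand in parentheses) and each TEAD4 summit as a line whose height is its signal value. The CXCL8 and CXCL2 loci hold 5 and 4 peaks, the CCL2 locus holds 2 at its left end, and the loci of CXCL9 and of CCL5 hold 0.

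The interferon-induced ligands CXCL9, CXCL10 and CXCL11, which attract T cells through CXCR3, also lie on chromosome 4 and had no peak. Their window (chr4:75957509-76091415, 133.9 kb) held 0 peaks, which allows up to 2.24 per 100 kb, taking 3 counts as the limit that a count of 0 leaves, or 2.75 by the upper bound of the exact two-sided Poisson 95% interval, which is the bound plotted for each locus. The nearest summits were 153 kb from CXCL11, 163 kb from CXCL9 and 171 kb from CXCL10. At this size the window could not be told from the average of all coding genes. The chromosome 4 clusters together had 9 peaks at 6 of 9 genes, and the chromosome 17 clusters, described next, had 2 peaks at 3 of 16 genes, against 56.2% of all coding genes with a peak. These counts were set side by side after they were seen and were not tested, since neighbouring genes share peaks.

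On chromosome 17, the 6 genes CCL2, CCL7, CCL11, CCL8, CCL13 and CCL1 formed a locus (chr17:34205274-34413233, 208.0 kb) with 2 peaks, or 0.962 per 100 kb (0.117 to 3.47). Both lay next to CCL2 (chr17:34255274-34257208, plus strand). The peak 373 bp upstream (chr17:34254774-34255001) had a signal value of 153, at the 84.9th percentile and the highest of any cluster peak. The peak 2659 bp upstream (chr17:34252393-34252836) had 71.3, with an NF-kB match 65 bp from its summit and no TEAD or AP-1 motif. The eosinophil attractant CCL11, at 30.8 kb, and the monocyte attractant CCL7, at 15.3 kb, counted as having peaks only through these 2 summits. CCL8, CCL13 and CCL1 had none, with the nearest summit at 64.5, 102 and 108 kb.

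The second chromosome 17 locus was the longest (chr17:35830360-36261063, 430.7 kb) and held the 10 genes CCL5, CCL16, CCL14, CCL15, CCL23, CCL18, CCL3, CCL4, CCL3L3 and CCL4L2. It held 0 peaks, which allows up to 0.696 per 100 kb by the limit of 3 counts, and the exact Poisson upper bound was 0.857, under the 0.886 of all coding genes. The locus was singled out after its count was seen, so this is a description and not a test. The nearest summit was 149 kb from CCL5 and 475 kb from CCL4L2. CCL3, CCL3L3, CCL4 and CCL4L2 include 2 pairs of close copies, CCL3 with CCL3L3 and CCL4 with CCL4L2, and reads without a unique place in the genome can be lost in mapping. Of the 50-base words of CCL4 and CCL4L2, 71.5 and 71.9% occurred once in hg38, and of CCL3 and CCL3L3 95.4 and 95.3%. The other 6 genes of the locus had 90.2 (CCL5) to 100% (CCL14). Over all members the median was 95.6% for the 19 genes with a peak and 96.65% for the 24 without. These words came from the gene bodies only, so the rest of the 430.7 kb window was not covered by them. The part of mapping in the count of 0 was not tested.

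The single loci, which are all loci other than these 5 clusters, held 13 peaks at 10 of their 18 genes, against 56.2% of all coding genes. The name does not mean 1 gene per locus. XCL2 with XCL1 and CCL26 with CCL24 form loci of 2 genes. CCL22, CX3CL1 and CCL17 form a locus of 3 genes, as do CCL27, CCL19 and CCL21. These loci of 3 genes were not called clusters because they lie on other chromosomes. CXCL12, the ligand of CXCR4 and a product of stromal cells, had 1 peak, 4263 bp upstream (chr10:44390534-44390977). Its signal value was 75.6 (56.1th percentile), and the TEAD and NF-kB matches shown above were centred 23 and 11 bp from the summit. It was the only single-locus peak with an NF-kB match.

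CCL20, which attracts cells bearing CCR6, had a peak of signal value 119 (chr2:227818344-227818535) in intergenic sequence past the 3′ end of the gene. Its summit lay 3048 bp downstream of an inner TSS and 12678 bp from the 5′ end. A second CCL20 peak, of 49.9, lay 39.2 kb upstream and held a TEAD motif. CX3CL1, a membrane-bound ligand also called fractalkine, had a peak in an exon that is part of its UTR (chr16:57377903-57378346). Its signal value was 54.7, it held an AP-1 motif 16 bp from its summit, and it lay 1153 bp downstream of an inner TSS but 5648 bp from the 5′ end. The same peak was assigned to the neighbours CCL22 and CCL17, ligands of CCR4. The other peak of this locus, 33.1 kb upstream of CCL22, had the lowest signal value of all 24 (31.7) and an IDR score of 921.

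CCL26 and CCL24, which act on eosinophils through CCR3, shared a peak in an intron of CCL26 (chr7:75772061-75772504, signal value 51.7), 72 bp upstream of an inner TSS and 17613 bp from the 5′ end. No motif was found at its summit. A second CCL26 peak, of 126, lay in an intron of the neighbouring gene HIP1, with an AP-1 motif. The promoter counts of CX3CL1 and CCL26 therefore rest on inner TSSs, and with the 5′ end of each gene as its only TSS, 2 of 43 genes, CXCL8 and CCL2, had a peak within 2.5 kb, against 10.8% of all coding genes by that rule.

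CXCL17, a ligand of mucosal tissues, had 3 peaks. The strongest chemokine peak of all (chr19:42480874-42481152, signal value 207) lay 38.1 kb upstream of it with an AP-1 motif, and the nearest coding TSS was that of CEACAM1. Of the others, one had a signal value of 95.1 and lay in an exon of CXCL17 itself, 9073 bp from a TSS of that gene. The other had 77.4 and lay in an intron of LIPE, which encodes hormone-sensitive lipase. For both, the nearest coding TSS was that of LIPE, at 6391 and 1148 bp. CXCL13, which attracts B cells, had a peak of 120 in an intron, with an AP-1 motif, and one of 41.9 at 10.7 kb upstream. CXCL16, a transmembrane ligand of CXCR6, had 1 peak of 80.8 at 26.6 kb, which was 779 bp from the TSS of ARRB2, a beta-arrestin gene.

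The remaining 8 single-locus genes had no peak. The distance to the nearest summit was 60.3 kb for XCL2 and 92.9 kb for XCL1, the C ligands, 65.3 kb for CCL25, 82.3 kb for CCL28, 270 kb for CXCL14, 286 kb for CCL27, 298 kb for CCL19 and 279 kb for CCL21. XCL1 and XCL2 are also near-identical copies, with 73.2 and 60.2% unique words. Over all 24 chemokine genes without a peak, the nearest summit had a median distance of 250.9 kb, from 60.3 to 475 kb.

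Clusters and single loci were then compared. The 5 clusters held 11 peaks in 1202 kb, or 0.915 per 100 kb, and the 12 single loci held 13 in 1511 kb, or 0.860 per 100 kb. The ratio was 1.06 (95% interval 0.432 to 2.57), with p = 1 in the exact conditional binomial test of 2 Poisson rates (two-sided, and also 1 after Benjamini-Hochberg adjustment over the 4 tests of clusters against single loci). Peaks beside each other are not independent, so the p-values are approximate. The interval leaves room for a density more than 2-fold higher or lower in clusters. Of the genes, 9 of 25 in clusters (36.0%, 20.3 to 55.5%) and 10 of 18 at single loci (55.6%, 33.7 to 75.4%) had a peak, against 56.2% of all coding genes. The background lay inside the interval of the single-locus genes and just above that of the cluster genes. The intervals of both classes overlap, and neither the difference between them nor that from the background was tested, since neighbouring genes share peaks.

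Within the clusters the chromosomes differed in count. The 3 chromosome 4 clusters had 9 peaks in 563.3 kb (1.60 per 100 kb) and the 2 chromosome 17 clusters had 2 in 638.7 kb (0.313 per 100 kb). This split was seen in the data and has no test of its own. Against the single loci, the density ratio was 1.86 for the chromosome 4 clusters (p = 0.154, same exact test) and 0.364 for the chromosome 17 clusters (p = 0.258), and neither passed 0.05. The pooled ratio near 1 thus combined clusters on either side of the single loci. Clusters also differed within each chromosome. On chromosome 17 the CCL2 locus had 0.962 per 100 kb and the CCL5 locus had 0. On chromosome 4 the loci of CXCL8 and CXCL2 had 2.19 and 1.99, and that of CXCL9 had 0.

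**Figure D3:**
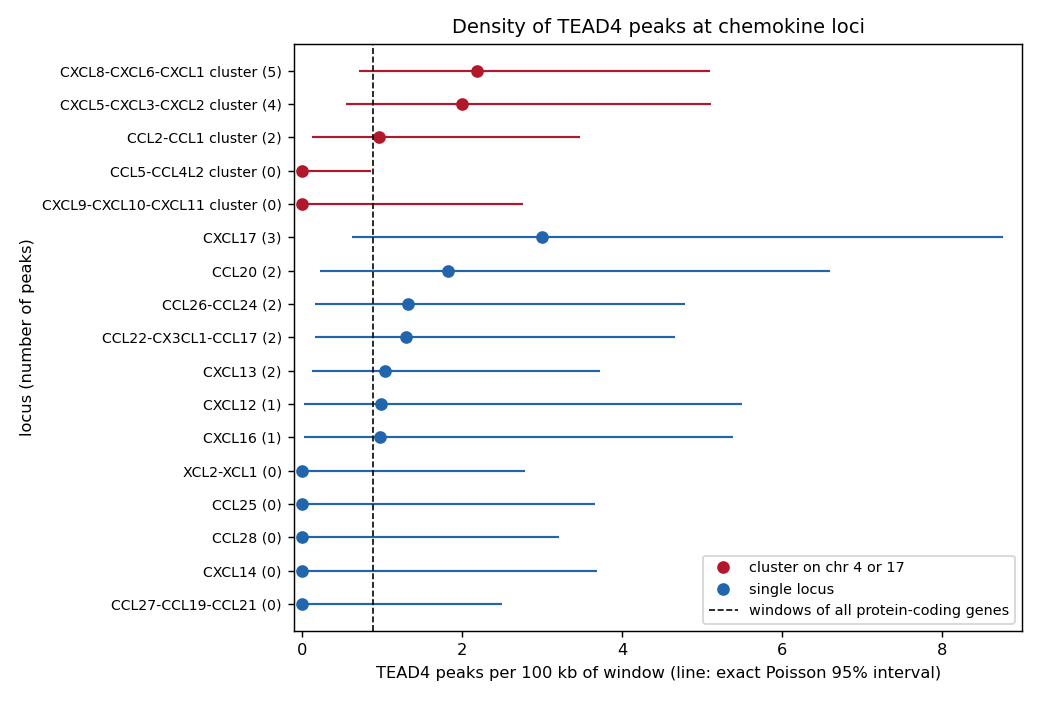
TEAD4 peaks per 100 kb of window for the 17 chemokine loci, with exact Poisson 95% intervals as lines and the number of peaks in parentheses, and the dashed line giving the windows of all coding genes (0.886). The point estimates run from 0 to 3.0, and the interval of every locus other than that of CCL5 to CCL4L2 crosses the dashed line.

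Signal values were similar in range. The cluster peaks had a median of 71.3 (37.7 to 153) and the single-locus peaks 77.4 (31.7 to 207). Of them, 6 of 11 and 8 of 13 were above the median of the list (odds ratio 0.75, interval 0.110 to 5.09, p = 1, Fisher's exact test, two-sided). These numbers of peaks allow a wide range of odds ratios, so they do not show that the classes are alike.

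The TEAD motif ACATTCC lay within 100 bp of the summit of 6 of 24 chemokine peaks (25%, 12.0 to 44.9%). The share was 23% of all 21113 peaks and 2.82% of 42226 flanking windows, which were as wide and lay 2000 bp from each summit on both sides. The 6 were peaks of CCL2, CXCL12, CXCL2, CXCL3, CCL20 and CXCL17. In clusters it was 3 of 11 and at single loci 3 of 13 (odds ratio 1.25, 0.128 to 12.0, p = 1, Fisher's exact test). With the shorter CATTCC, 13 of 24 (54.2%) held a match, against 46.8% of the list and 10.6% of the flanking windows.

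The AP-1 motif lay within 100 bp of 9 of 24 chemokine summits (37.5%, 21.2 to 57.3%), against 25.4% of all peaks and 3.43% of flanking windows. The 9 peaks were 2 of CXCL8 and 1 each of CXCL6, CXCL1, CX3CL1, CXCL16, CXCL17, CXCL13 and CCL26. Clusters had 4 of 11 and single loci 5 of 13 (odds ratio 0.914, 0.126 to 6.39, p = 1, Fisher's exact test). No chemokine peak held both motifs, against 4.49% of the list, and with 24 peaks 0 allows up to 13.8% (Wilson upper bound). Neither motif was found at 9 of 24 (37.5%), against 56.1% of the list.

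The NF-kB motif was found at 4 of 24 summits (16.7%, 6.68 to 35.9%), 2 at CXCL8, 1 at CCL2 and 1 at CXCL12, against 6.38% of the list and 2.89% of flanking windows. The lower bound of the interval lay just above the share of the list, and no test was made. Clusters held 3 of 11 and single loci 1 of 13. A match is a description of letters in the window, and binding of NF-kB or AP-1 was not measured.

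**Figure D4:**
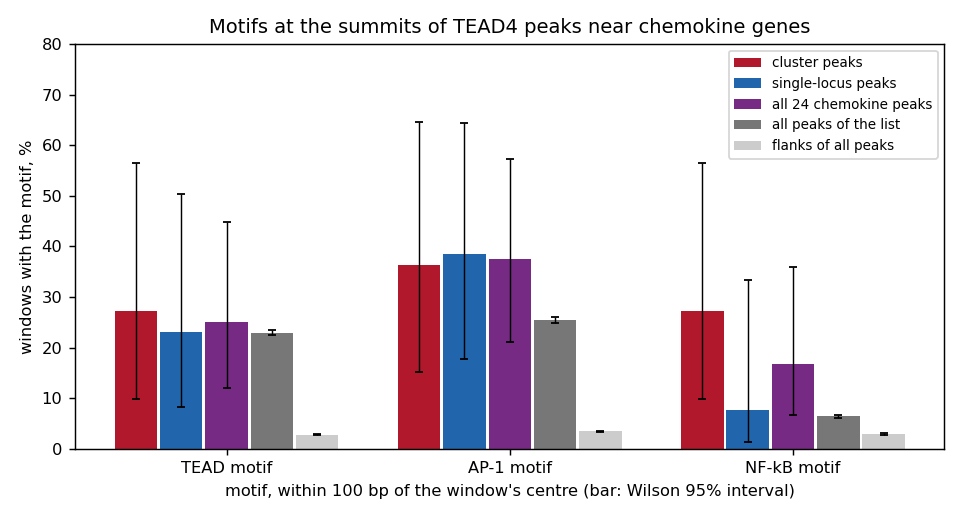
Share of windows with each motif, in percent, within 100 bp of the summit for cluster peaks (11), single-locus peaks (13), all 24 chemokine peaks, all 21113 peaks and the flanking windows, with Wilson 95% intervals as bars. The chemokine peaks stand at 25, 37.5 and 16.7% for the TEAD, AP-1 and NF-kB motifs, with intervals far wider than those of the list.

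The receptors of these ligands were counted the same way. Of 18 chemokine receptor genes, 6 had a peak by the 50 kb rule (33.3%, Wilson 95% interval 16.3 to 56.2%), against 56.2% of all coding genes, and 0 within 2.5 kb of a TSS (upper bound 17.6%), against 16.7%. CCR3 had 5 peaks, the nearest at 3161 bp, CXCR5 had 5, CCR7 and XCR1 had 3 each, and CCR1 and CCR10 had 2 each. CXCR2, the receptor of CXCL8 and its neighbours, had no summit nearer than 159 kb, CCR2, the receptor of CCL2, none nearer than 69.2 kb, and CXCR4, the receptor of CXCL12, none nearer than 109 kb. Of the 4 atypical receptors, which bind chemokines without classical signaling, ACKR3, which binds CXCL12, had 3 peaks (nearest 5168 bp) and ACKR4 had 2 (nearest 2045 bp), while ACKR1 and ACKR2 had none.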

How the data were processed

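TEAD4 ChIP-seq reads from LX-2 cells were mapped to hg38 with Chromap by the authors (mapping quality of at least 10), and replicates 1 and 3 were passed through the ENCODE IDR pipeline. The peak caller is not given in the sources used here. The deposited columns used were the score (a scaled IDR), the signal value, the −log10 q-value of each peak, as given by the authors' peak caller and pipeline, and the offset of the summit. Of the 21113 peaks, 13039 are 444 bp wide, and the summit is their midpoint in all but 1. Depth per sample is unknown, so Wilson and exact Poisson 95% intervals cover counting error over genes or peaks only.

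Genes and TSSs came from GENCODE release 44 on hg38. The 50 kb windows that overlap were merged into loci, and a cluster was a locus on chromosome 4 or 17 with at least 3 chemokine genes. The readthrough gene CCL15-CCL14 falls outside the symbol rule. Clusters and single loci were compared by an exact conditional binomial test of Poisson rates and two-sided Fisher's exact tests, adjusted over 4 tests by Benjamini-Hochberg. Named genes were all with a summit within 10 kb of a TSS, the strongest peak of each locus and, without a peak, the distance of the nearest summit. The other peaks were named, and the gene length limit of 25 kb was set, after values were seen. Alternatives changed the distance, the peak set, the TSS annotation, the gene rule, the definitions of cluster and single locus, the motif and its window. The members and lists were chosen with earlier results of these data known. Python 3.11.15, numpy 2.4.6, pandas 2.3.3, scipy 1.17.1 and matplotlib 3.10.9 were used, and the code was tested on simulated data.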

Additional observations from a re-analysis of the deposited data

How the results depend on the processing

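Of 78 alternatives over 9 results, 8 moved a count or share beyond the limits set for it and 17 turned a direction. The other 53 did neither, but the ratios among them still moved in size. None of the 37 alternatives of a test had p under 0.05 (0.154 to 1), so no direction between clusters and single loci was established. Of the 35 chemokine genes with at least 90% unique words, 17 had a peak by the 50 kb rule. The share of all coding genes under this restriction was not computed, so these 17 have no background to compare with. The number of genes with a peak was 9 of 43 at 10 kb (main 19), against 34.0% of all coding genes at that distance. That within 2.5 kb of a TSS was 1 (CCL2) of 43 with peaks above the median signal value only, against 8.56% of all coding genes, and 2 of 43 with 1 TSS per gene, against 10.8% (main 4). The number of peaks was 10 at 10 kb, 37 at 100 kb, 14 above the median signal value and 15 where a chemokine TSS was the nearest coding TSS (main 24). The share with the TEAD motif was 54.2% with CATTCC. Without a turn, the TEAD odds ratio ran up to 5.0 (10 kb), the density ratio up to 1.86 (chromosome 4 clusters), the signal odds ratio down to 0.343 (loci with 1 gene) and the AP-1 odds ratio down to 0 (chromosome 17 clusters). The density ratio, 1.06 in the main comparison, was 0.805 at 10 kb, 0.798 at 100 kb, 0.943 above the median signal value, 0.967 with overlapping peaks merged, 0.941 against loci with 1 chemokine gene and 0.364 for the chromosome 17 clusters. The TEAD odds ratio of 1.25 became 0.571 at the highest IDR score, 0.833 with peaks merged, 0.75 against loci with 1 gene and 0.952 for the chromosome 4 clusters. The AP-1 odds ratio of 0.914 became 1.80 at 25 kb, 1.27 at 100 kb, 1.07 with peaks merged, 1.14 against loci with 1 gene, 1.28 for the chromosome 4 clusters and 1.92 within 250 bp. The signal odds ratio of 0.75 became 1.10 at 100 kb, and for the chromosome 17 clusters it could not be given as a finite value, since both of their peaks were above the median. The cause of these turns was not tested.

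No paired analysis was possible because these peaks combine replicates 1 and 3 and carry no value per replicate, for which reason no replicate was left out either.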

Other observations

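The genes of the NF-kB subunits and their inhibitor, which were counted beside the chemokine genes, had a peak at 4 of 6 by either distance (66.7%, Wilson 95% interval 30.0 to 90.3%), against 56.2% of all coding genes by the 50 kb rule and 16.7% within 2.5 kb. This list was chosen with earlier results of these data known, and the difference from either background was not tested. The summit lay 1 bp from a TSS for RELA, 11 bp for NFKB1, 39 bp for NFKBIA and 62 bp for NFKB2. NFKBIA, the inhibitor that NF-kB itself induces, had 6 peaks, the strongest with a signal value of 167. RELB and REL had none, with the nearest summits at 154 and 228 kb.

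The CXC ligand genes whose symbols fall outside the naming rule lie between CXCL6 and CXCL5. PF4V1 had 1 peak, that of CXCL6, at 36.3 kb, while PF4 and PPBP had none nearer than 62.9 and 56.7 kb. With these 3 genes added, 20 of 46 had a peak, against 56.2% of all coding genes.

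The width of a peak went with its signal value. The 16 chemokine peaks of 444 bp had a median signal value of 60.1 (31.7 to 109), and the other 8, which were narrower, had 123 (80.8 to 207). Over the list these medians were 51.0 and 133.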
